A study of Homo sapiens with 6 samples.

Results

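TRP channels are cation channels of the transient receptor potential superfamily, and 10 of their genes (TRPA1, TRPC1, TRPM2, TRPM4, TRPM7, TRPM8, TRPV1, TRPV2, TRPV3 and TRPV4) were followed here among the 23345 rows of a gene count table. The genes were chosen by symbol, with their values in this same comparison known from an earlier reading in which TRPA1 stood out by its rise. Their differences between the groups are therefore given as a description, without a test. RNA was sequenced from A375, an established human melanoma line that carries a BRAF mutation, grown in DMEM with serum. Cells of both groups had been infected with a lentivirus, which carried GFP in the 3 control libraries and murine BMI1 in the other 3. BMI1 belongs to Polycomb repressive complex 1, which holds developmental genes in a repressed state. Nothing in the labels says that libraries of a group are separate cultures. The p-values below thus measure only how these libraries vary, which may be technical.

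TRP channels open in response to irritants, temperature, stretch, lipids or intracellular messengers, and most of them let calcium enter the cell. TRPA1, TRPV1 and TRPM8 are best known from sensory neurons, where they report irritants, heat and cold. Pigment cells and melanomas also make TRP channels, TRPM1 being the melanocytic member of the superfamily.

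The libraries held between 20221432 and 30388937 estimated counts. Levels are given as CPM, counts relative to library size after scaling by TMM, the trimmed mean of M-values. The BMI1 row stood at 81.5, 92.6 and 94.0 CPM in the GFP libraries and 518, 522 and 506 CPM in the BMI1 libraries. Reads of the endogenous and the murine transcript were not separated in this row. GFP replicate 1 lay apart from the other GFP libraries on the second principal component, at 26.0 against -12.4 and -12.2. SOX10, a lineage factor of melanocytes, was present at a mean of 639 CPM, while the pigment enzyme genes TYR and DCT stood at or near 0. The 10 melanocytic markers together summed to between 792 and 938 CPM with GFP and between 827 and 899 CPM with BMI1. Most of each sum was SOX10, so the sums say little about the other markers. In the fit described below 7 of the 10 were tested. EDNRB and S100A1 were higher with BMI1, by 0.42 and 0.19 on the log2 scale, none was lower and 5 did not pass.

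Of the 10 channel genes, 9 had enough counts to be tested and TRPV3 did not. In edgeR's quasi-likelihood fit over all 15079 tested genes, 5 of the 9 passed an adjusted p of 0.05, where 26.5% of all tested genes did. TRPA1, TRPM4 and TRPV4 were the 3 higher with BMI1, a direction taken by 17.1% of all tested genes. TRPM7 and TRPM8 were the 2 lower, a direction taken by 9.33%. For these same 5 genes the BMI1 and GFP libraries did not overlap in CPM, as was the case for 40.1% of tested genes (22.7% with BMI1 higher and 17.4% with BMI1 lower). Because the genes were chosen with these results known, nothing is read from the counts. In bulk RNA, more cells with a transcript and more transcript per cell cannot be told apart.

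**Figure D1:**
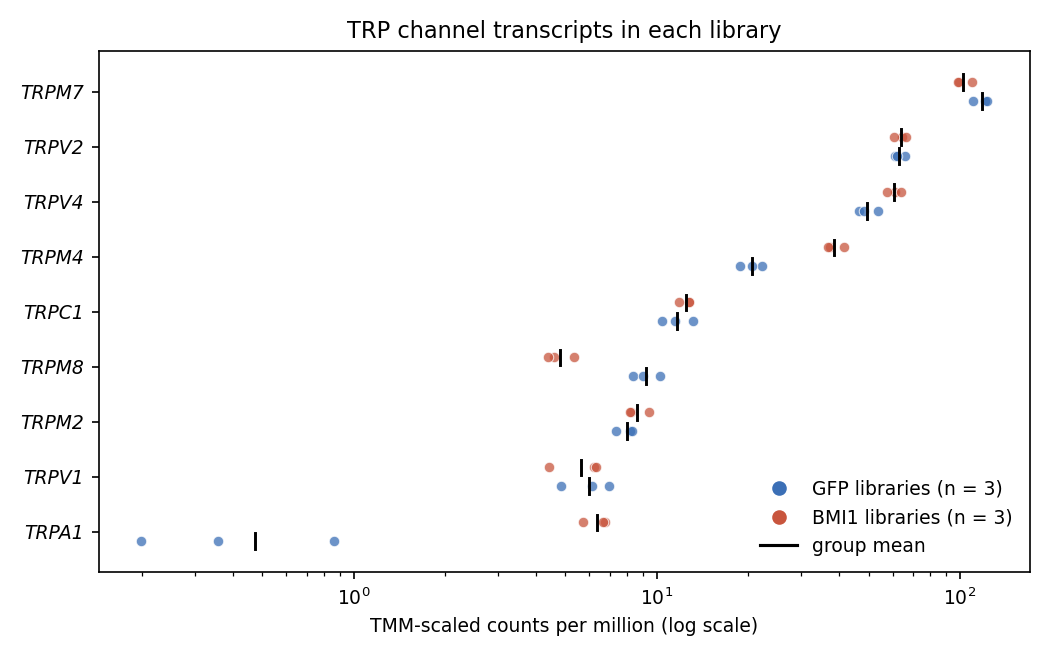
TMM-scaled CPM on a log axis for the 9 tested channel genes, with a point for each of 3 GFP and 3 BMI1 libraries and a bar at each group's mean. TRPA1 lies between 0.20 and 0.86 CPM with GFP and between 5.70 and 6.78 CPM with BMI1, TRPM4 and TRPV4 are also higher in all BMI1 libraries, and TRPM7 and TRPM8 are lower. TRPV3 had 2 counts in each group and is not drawn.

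TRPA1, a calcium-permeable channel opened by electrophilic irritants and oxidants, had the largest fold difference of the 9 tested channels. Its estimated counts were 17.6, 8.6 and 6.49 in the GFP libraries and 152, 134 and 140 in the BMI1 libraries. On the CPM scale these were 0.862, 0.357 and 0.199 in GFP and 6.78, 6.64 and 5.70 with BMI1. Every BMI1 library lay far above every GFP library, and among the GFP libraries the highest value was that of replicate 1, the library that lay apart. The means were 0.473 ± 0.346 and 6.37 ± 0.589 CPM (SD, n = 3), a log2 fold change of 3.84 (SE 0.30), or 14.4-fold. Only 38 tested genes had a log2 fold change at least as large, TRPA1 included. Without GFP replicate 1 the log2 fold change was 4.53, against control libraries of 8.6 and 6.49 counts. TRPA1 passed the filter on low counts through its BMI1 libraries, as 2 of the GFP libraries held under 10 counts. Of 16 tested genes with a GFP mean under 1 CPM and a BMI1 mean of at least 5 CPM, the median log2 fold change was 3.83, so a change of this size is what such a level in both groups implies.

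The TRPA1 row has a further limit. RSEM, the program behind the counts, divides reads that fit several transcripts, which leaves fractions. The TRPA1 value was not a whole number, to within 0.005, in any of the 6 libraries, whereas 38.4% of values over all rows with counts were. TRPM7, TRPM8, TRPV2 and TRPV4 had no whole value either, and TRPM4 and TRPV1 had 1 each. TRPC1 had 3 and TRPM2 had 5, so fractions do not set TRPA1 apart from the other channels. In RefSeq on GRCh38.p14 the span of TRPA1 on chromosome 8 overlaps that of the long noncoding RNA gene MSC-AS1, listed in the table as LOC100132891. Whether the libraries kept strand is not given in the sources used here, so reads from bases shared by both genes cannot be told apart. The LOC100132891 row stood at 5.65, 6.99 and 7.55 CPM with GFP and 9.10, 9.27 and 9.52 CPM with BMI1, again without overlap. It rose by 0.45 on the log2 scale (SE 0.11, edgeR adjusted p = 0.00900), a far smaller fold than that of TRPA1. MSC, the gene for the helix-loop-helix repressor musculin next to TRPA1, did not pass, with 12.8 ± 2.69 and 14.4 ± 1.01 CPM (edgeR adjusted p = 0.288). MSC did pass without GFP replicate 1, at 0.35 on the log2 scale (edgeR adjusted p = 0.0126). The pseudogene TRPA2P, on the other side of TRPA1, had 0 counts in all libraries.

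TRPM8, the channel opened by cold and menthol, moved the opposite way. It stood at 8.33, 10.3 and 9.04 CPM in the GFP libraries and 4.59, 5.35 and 4.39 CPM in the BMI1 libraries. All BMI1 libraries lay below all GFP libraries. The log2 fold change was -0.96 (SE 0.12), which left TRPM8 at 51.6% of its GFP level. Only 120 tested genes had a log2 fold change as low or lower, TRPM8 included. TRPV1, the heat and capsaicin receptor, showed no such difference. Its libraries overlapped, at 6.95, 6.12 and 4.84 CPM with GFP and 6.20, 4.41 and 6.31 CPM with BMI1, with a log2 fold change of -0.06 (SE 0.16). TRPV3, a warmth-sensitive channel of keratinocytes, had 0, 1 and 1 counts in GFP and 2, 0 and 0 counts in BMI1 libraries. These lie under the 3 counts that a value of 0 allows, which is 0.149 CPM in the shallowest library, so no fold is given.

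TRPM4, which conducts sodium and potassium but not calcium and opens when intracellular calcium rises, was higher with BMI1. It stood at 22.2, 20.7 and 18.9 CPM with GFP and 37.2, 36.8 and 41.5 CPM with BMI1. All BMI1 libraries were above all GFP libraries, by 17.9 CPM in the means. The log2 fold change of 0.91 (SE 0.07) became 0.78 when each library was corrected for the GC content of transcripts. TRPV4, a channel opened by osmotic swelling and lipid messengers, was higher with BMI1 by a smaller factor. Its values were 53.6, 46.5 and 48.2 CPM with GFP and 61.2, 57.4 and 63.7 CPM with BMI1. The groups did not overlap, and the log2 fold change was 0.30 (SE 0.07), or 0.20 after GC correction.

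The starts of TRPM4 and TRPM8 are shown because these 2 channels had the largest opposite changes among the genes with a promoter sequence in the RefSeq table, which held 7 of the 10. The first is chr19:49157542-49157740 on the plus strand, the second chr2:233917123-233917372 on the plus strand, both on GRCh38.p14 and 5′ to 3′. Both end before the first annotated exon base, which leaves 199 of the 250 bases upstream of the RefSeq start of TRPM4 and all 250 of TRPM8. Capitals mark every CG and TATAAA.
TRPM4: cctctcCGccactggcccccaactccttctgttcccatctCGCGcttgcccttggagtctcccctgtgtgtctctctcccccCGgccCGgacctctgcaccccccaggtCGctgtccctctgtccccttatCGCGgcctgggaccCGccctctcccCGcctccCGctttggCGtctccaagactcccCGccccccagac
TRPM8: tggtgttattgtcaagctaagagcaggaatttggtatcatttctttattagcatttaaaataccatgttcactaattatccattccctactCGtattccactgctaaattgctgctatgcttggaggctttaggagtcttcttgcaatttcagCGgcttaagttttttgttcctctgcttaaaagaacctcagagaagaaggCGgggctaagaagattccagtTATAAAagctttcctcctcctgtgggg
These sequences differ in base composition. Over the full 250 bases before the start, TRPM4 held 16 CG pairs and 69.2% G or C, and TRPM8 held 3 CG pairs and 40.0% G or C. Of 35114 promoters in the table, 41.0% had at least as many CG pairs as TRPM4 and 77.1% at least as many as TRPM8, the median being 11. TATAAA was found, on either strand, in TRPM8 among the 7 genes, beginning 27 bases before the start, and in 10.7% of all promoters. The other 5 windows held between 7 CG pairs (TRPV1) and 38 (TRPM7), and 3.28% of promoters had as many as TRPM7. Some of these windows also hold annotated exon bases of their own gene. Ending before those bases leaves 194 bases with 3 CG pairs in TRPV1, 232 with 34 in TRPM7 and 67 with 0 in TRPV3. Among the 5 channels that differed, then, those lower with BMI1 had both a promoter poor in CG and a promoter rich in it. Which start these cells use was not measured.

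TRPM7, a channel fused to a protein kinase that carries magnesium, calcium and zinc, was slightly lower with BMI1. It stood at 110, 121 and 123 CPM with GFP and 99.5, 110 and 98.2 CPM with BMI1. The groups came close, the lowest GFP library at 110.2 and the highest BMI1 library at 109.6 CPM. The log2 fold change was -0.21 (SE 0.06), and -0.13 after GC correction. It missed the threshold without GFP replicate 2, GFP replicate 3, BMI1 replicate 1 or BMI1 replicate 3, at log2 fold changes from -0.19 to -0.17.

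The remaining channels overlapped between the groups. TRPV2, a calcium-permeable channel of many cell types, stood at 65.7, 61.1 and 61.9 CPM with GFP and 64.3, 60.4 and 66.4 CPM with BMI1, a log2 fold change of 0.02 (SE 0.06). TRPC1, a subunit of receptor-operated channels, stood at 10.4, 13.2 and 11.5 CPM with GFP and 12.8, 12.8 and 11.8 CPM with BMI1, a log2 fold change of 0.09 (SE 0.09). TRPM2, opened by ADP-ribose under oxidative stress, stood at 8.19, 8.30 and 7.35 CPM with GFP and 8.25, 8.18 and 9.44 CPM with BMI1, a log2 fold change of 0.12 (SE 0.10). These standard errors do not show that the 3 genes were equal in both groups.

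Channels can be compared with each other per transcript length, here CPM per kilobase of the GENCODE v29 transcript with the longest coding sequence. In GFP cells TRPV2 led with 22.4 ± 0.87, followed by TRPV4 with 15.2 ± 1.13, TRPM7 with 11.3 ± 0.67, TRPM4 with 5.01 ± 0.41, TRPC1 with 2.70 ± 0.32 and TRPM8 with 1.64 ± 0.18 CPM per kilobase (SD, n = 3). TRPM2 and TRPV1 followed with 1.28 ± 0.08 and 1.26 ± 0.22, and their libraries overlapped. TRPA1 had 0.09 ± 0.07 CPM per kilobase and TRPV3 0.0042. Apart from TRPM2 and TRPV1, neighbours in this order did not overlap. In BMI1 cells TRPM4, at 9.37 ± 0.62, overlapped TRPM7, at 9.85 ± 0.60. TRPA1, at 1.22 ± 0.11 CPM per kilobase, now took the seventh place, overlapping TRPV1 at 1.19 ± 0.22 and above TRPM8 at 0.85 ± 0.09, and TRPV1 and TRPM8 overlapped each other. TRPA1 thus went from a level below TRPV1 to a level among the low channels, and stayed far under TRPV2, TRPV4, TRPM7 and TRPM4. The 10 genes summed to between 285 and 287 CPM with GFP and between 301 and 307 CPM with BMI1, and TRPA1 made up at most 0.301% of the sum in a GFP library and no more than 2.25% in a BMI1 library.

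**Figure D2:**
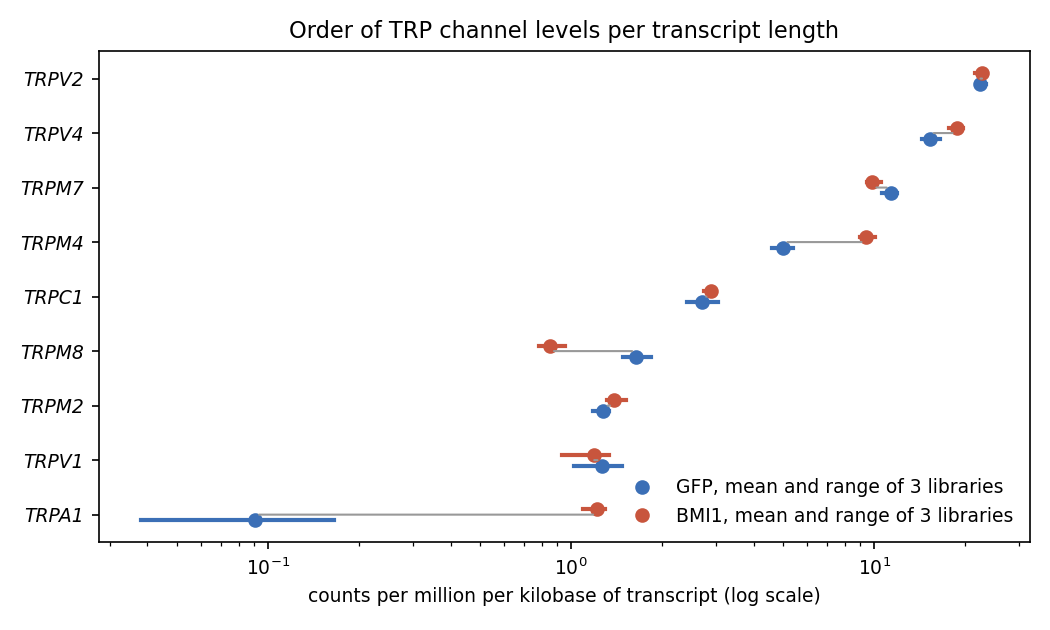
CPM per kilobase of transcript, on a log axis, for the 9 tested channel genes in their GFP order, with the mean (point) and range (bar) of 3 libraries per group and a grey line joining the means. TRPA1 moves from 0.09 to 1.22, the level of TRPV1, TRPM8 falls below it from 1.64 to 0.85, and TRPM4 reaches TRPM7.

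Transcript GC content ran with the direction of 4 of the 5 channels that differed, TRPA1 being the exception. TRPM4 and TRPV4, both higher, held 63.5% and 60.4% GC, and TRPM7 and TRPM8, both lower, held 39.6% and 43.8%. The TRPA1 transcript, higher with BMI1, held 40.1%. Over all tested genes the median was 48.4%, with 55.0% for the genes called higher and 43.2% for those called lower. GC correction left TRPA1 at a log2 fold change of 3.92 and TRPM8 at -0.91.

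The rest of the superfamily was examined through 17 further genes, of which 7 had enough counts. Of these, 6 did not pass, and none fell. PKD2, a polycystin of the primary cilium, differed by 0.14 on the log2 scale without passing (edgeR adjusted p = 0.102), and MCOLN1, a lysosomal channel, by 0.20 (edgeR adjusted p = 0.0988). Both passed without GFP replicate 1 (0.0152 and 0.0108), and MCOLN1 also without BMI1 replicate 2 (0.0483). TRPM3 stood at 6.28 ± 0.40 and 5.82 ± 0.19 CPM with GFP and BMI1 (edgeR adjusted p = 0.495). TRPM1, the melanocytic channel, was too low to test, with 19.6 counts over the GFP and 19.1 over the BMI1 libraries.

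**Figure D3:**
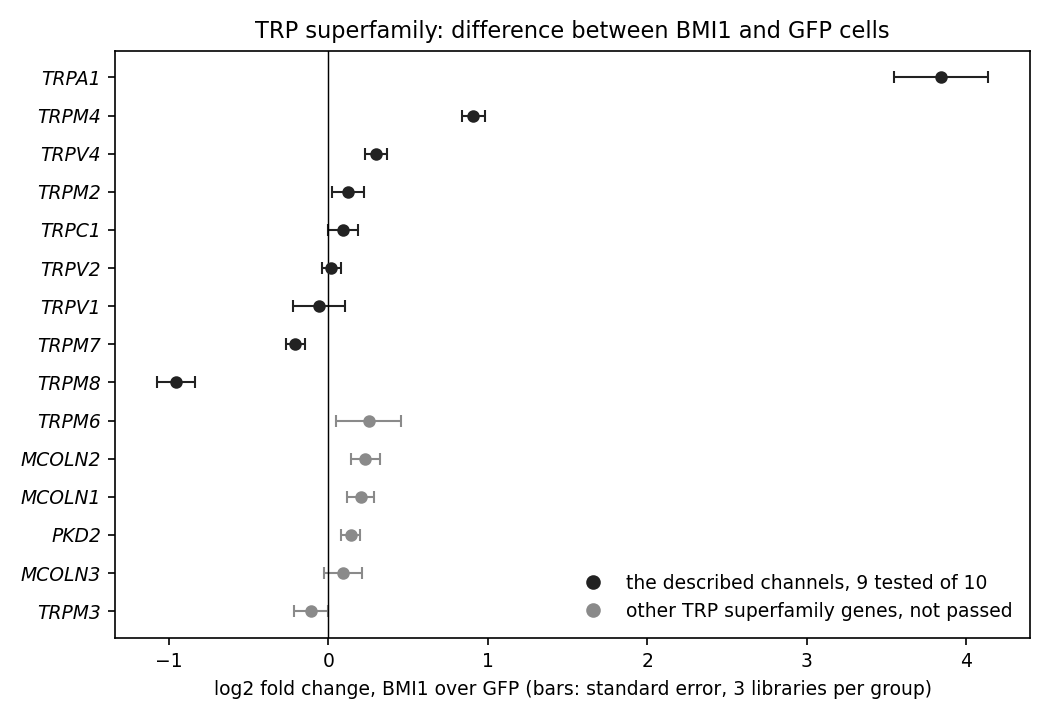
Log2 fold change of BMI1 over GFP, with bars of 1 standard error, for the 9 tested channel genes (black) and the 6 other genes of the TRP superfamily that were tested and did not pass (grey), 3 libraries per group. TRPA1 at 3.84 and TRPM4 at 0.91 lie to the right, TRPM8 at -0.96 lies to the left, and most others lie close to 0.

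**Figure D4:**
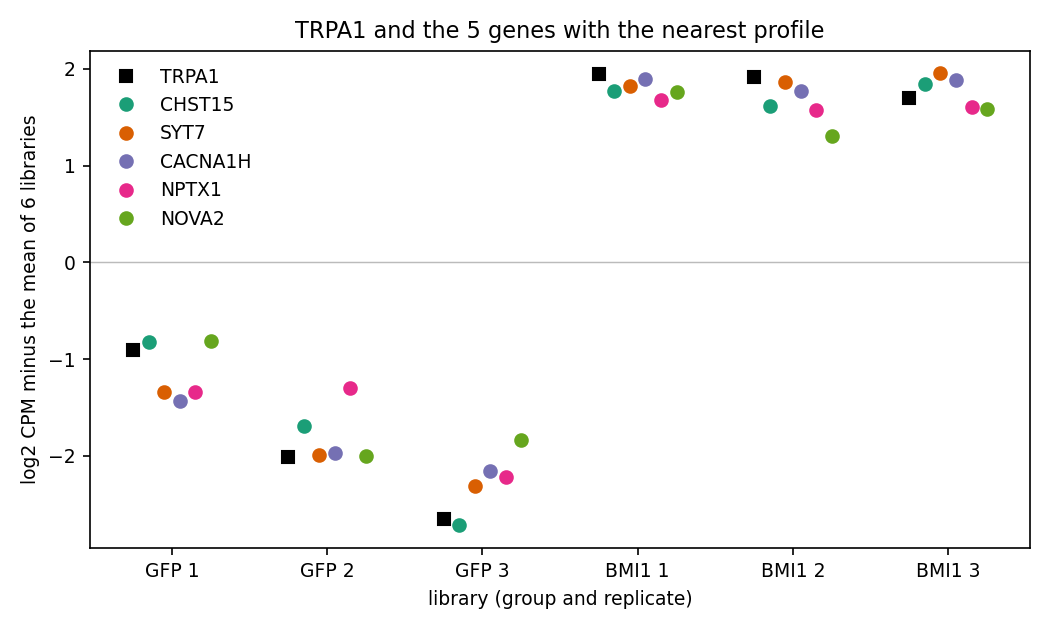
Log2 CPM minus each gene's mean over the 6 libraries, by library, for TRPA1 (squares) and the 5 genes nearest to it (circles, set side by side within each library). All 6 genes are near or above 1.3 in each BMI1 library and below -0.8 in each GFP library, with CHST15 closest to TRPA1.

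Among 13710 other genes with a mean of at least 1 CPM, those with a profile over the 6 libraries most like that of TRPA1 were CHST15, SYT7, CACNA1H, NPTX1 and NOVA2. Likeness was the Euclidean distance between log2 CPM values centred on each gene's mean, which was 0.51 for CHST15 and 1.05 for NOVA2, and Pearson's r over the 6 libraries lay between 0.984 and 0.995. CHST15, a chondroitin sulfotransferase, stood at 0.403 ± 0.296 CPM with GFP and 4.68 ± 0.379 CPM with BMI1. Its GFP values, 0.718, 0.357 and 0.133 CPM, were highest in replicate 1, as those of TRPA1 were. SYT7, a calcium sensor of vesicle release, reached 8.69 ± 0.42 CPM, and CACNA1H, a T-type calcium channel, 4.45 ± 0.21 CPM with BMI1. NPTX1, a neuronal pentraxin, and NOVA2, a neuronal splicing factor, reached 2.05 ± 0.08 and 1.85 ± 0.30 CPM. All 5 were under 1 CPM in each GFP library. Being nearest to TRPA1 fixes their direction and approximate fold. It also favours a like order of the GFP libraries, so nothing is read from that order.

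Genes next to the other channels gave a mixed picture. PCOLCE2, a collagen-processing enhancer next to TRPC1, rose from 20.1 ± 0.32 to 32.4 ± 0.61 CPM (log2 difference 0.69, edgeR adjusted p = 1.43e-06), while PLS1, on the other side of TRPC1, had 0.05 and did not pass. FAM222A, listed as C12orf34 and next to TRPV4, rose by 0.47 on the log2 scale (edgeR adjusted p = 0.00119), and GLTP, on its other side, did not pass. SLC6A16, beside TRPM4, rose by 1.03 at under 1 CPM (edgeR adjusted p = 0.0328), a call lost without any of the 6 libraries (edgeR adjusted p from 0.0509 to 0.120). SHPK overlaps TRPV1 and rose by 0.22 (edgeR adjusted p = 0.0345), a call lost without GFP replicates 2 or 3 or BMI1 replicates 1 or 2. Reads from bases that SHPK and TRPV1 share cannot be told apart either. UBB, a ubiquitin gene beside TRPV2, rose by 0.11 (edgeR adjusted p = 0.0453). That call was lost without GFP replicates 2 or 3 or BMI1 replicates 1 or 3. The measured neighbours of TRPM7, TRPM8, TRPM2 and TRPV3 did not pass with all libraries or were too low to test. Without GFP replicate 1, CFAP410, listed as C21orf2 and beside TRPM2, passed at 0.25 on the log2 scale (edgeR adjusted p = 0.0422). SPPL2A, beside TRPM7, then passed as a fall, at -0.17 (edgeR adjusted p = 0.0229).

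Genes that act around TRP channels were taken from 7 lists written from general knowledge, the other TRP genes above included. Together they held 106 tested genes, of which 28 rose (26.4%, where 17.1% of all tested genes rose) and 9 fell (8.49%, where 9.33% fell). Their median log2 fold change was 0.07, against -0.01 over all tested genes. Without GFP replicate 1 there were 35 rises and 15 falls. Without BMI1 replicate 3 there were 21 rises and 3 falls. Falls numbered 5 without GFP replicate 2, 5 without GFP replicate 3 and 4 without BMI1 replicate 1.

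**Figure D5:**
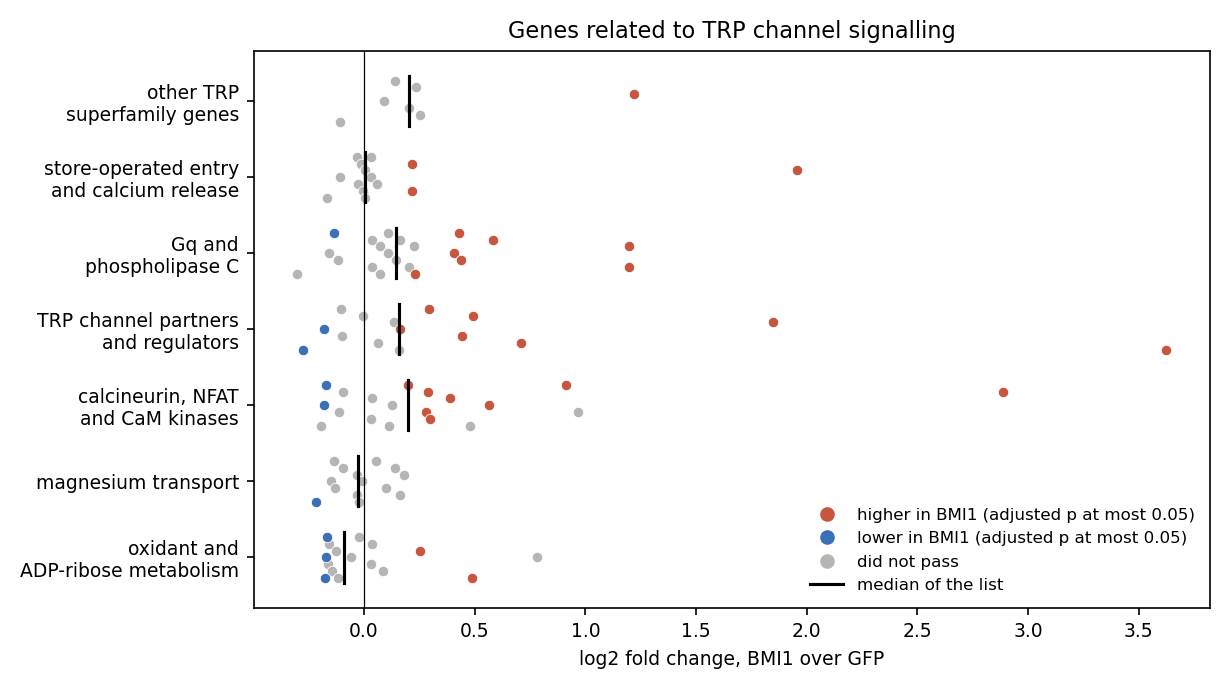
Log2 fold change of BMI1 over GFP for each tested gene of 7 lists of genes related to TRP channel signalling, coloured by whether the gene passed edgeR's adjusted p of 0.05 and in which direction, with a bar at each list's median. Medians run from -0.09 in the oxidant list to 0.20 in the lists of other TRP genes and of calcineurin, NFAT and CaM kinases, and single genes reach 3.62 (ABCC8) and 2.89 (RCAN2).

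Gq proteins and phospholipase C enzymes pass receptor signals to several TRP channels by splitting the membrane lipid PIP2. Among 21 genes with enough counts there were 7 rises and 1 fall, and the list had a median log2 fold change of 0.15. PLCB2 rose from 1.84 ± 0.38 to 4.25 ± 0.60 CPM (2.3-fold, SE of the log2 value 0.19, edgeR adjusted p = 0.000391). PLCG2 rose from 3.07 ± 0.20 to 7.04 ± 0.27 CPM (2.29-fold, SE of the log2 value 0.12, edgeR adjusted p = 9.99e-06). The fall was in PIP5K1A, which makes PIP2, at -0.14 (edgeR adjusted p = 0.0349), a call lost without any of 5 libraries and kept without GFP replicate 1. That omission gave 10 rises and 1 fall in the list.

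Partners and regulators of TRP channels changed in both directions. The 15 genes with enough counts gave 7 rises and 2 falls around a median of 0.16, and 8 rises and 3 falls without GFP replicate 1. ABCC8, the sulfonylurea receptor that associates with TRPM4, stood at 0.144, 0.119 and 0.033 CPM with GFP and 1.34, 1.34 and 0.936 CPM with BMI1. It rose by 3.62 on the log2 scale (SE 0.41, edgeR adjusted p = 2.81e-05), from 7 counts over the GFP libraries to 80 over the BMI1 libraries. TMEM100, a membrane protein reported in mouse sensory neurons to act on TRPA1, rose from 0.602 ± 0.139 to 2.22 ± 0.212 CPM (log2 difference 1.85, edgeR adjusted p = 5.80e-05). PACSIN3, an adaptor that binds TRPV4, differed by -0.27 (edgeR adjusted p = 0.00413). S100A10, which carries some TRP channels of the V subfamily to the membrane, had -0.18 (edgeR adjusted p = 0.00585). Whether it does so for the V channels described here was not measured.

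Calcineurin, NFAT factors and CaM kinases read the calcium that such channels admit. There were 8 rises and 2 falls among 19 genes with enough counts, and 9 missed the threshold. The median was 0.20. RCAN2, an inhibitor of calcineurin, rose from 0.736 ± 0.109 to 5.56 ± 0.855 CPM (log2 difference 2.89, SE 0.19, edgeR adjusted p = 3.04e-07). Its paralogue RCAN1, a gene that NFAT induces, moved the other way, by -0.18 on the log2 scale (edgeR adjusted p = 0.00845), a call lost without BMI1 replicate 3 (0.0546). CAMK1D had 0.91 (edgeR adjusted p = 0.0291) and NFATC3 -0.17 (edgeR adjusted p = 0.0490). The CAMK1D call was lost without GFP replicates 2 or 3 or BMI1 replicates 1 or 3, and that of NFATC3 without any library but GFP replicate 1. The list had 5 rises and no fall without BMI1 replicate 3, 5 rises and 1 fall without GFP replicate 2, and 9 rises and 4 falls without GFP replicate 1.

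Store-operated entry and calcium release genes mostly missed the threshold. Of 14 tested genes, 3 rose and 11 did not pass, with a median of 0.01, the same counts without GFP replicate 1. RYR1, a calcium release channel best known from skeletal muscle, stood at 3.26, 3.58 and 2.82 CPM with GFP and 13.2, 11.5 and 12.5 CPM with BMI1. It rose by 1.95 on the log2 scale (SE 0.11, edgeR adjusted p = 8.92e-08). STIM1, the calcium sensor of the endoplasmic reticulum, and TMEM110, a regulator of STIM1, each rose by 0.22 (edgeR adjusted p = 0.0192 and 0.0205). The STIM1 call was lost without GFP replicates 2 or 3 or BMI1 replicates 1 or 3, and that of TMEM110 without BMI1 replicates 1 or 2, so that RYR1 was left alone without BMI1 replicate 1.

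Magnesium transport genes, which share their ion with TRPM7, held 14 tested genes, with a median of -0.03. MRS2, the mitochondrial magnesium channel, fell by 0.22 on the log2 scale (edgeR adjusted p = 0.0301) and the other 13 did not pass. MRS2 no longer passed when GFP replicate 3 or BMI1 replicates 1 or 3 were left out, and 2 genes fell without GFP replicate 1 or without BMI1 replicate 2. In the list of oxidant and ADP-ribose metabolism, which supplies activators of TRPM2 and TRPA1, the 16 genes with enough counts held 2 rises and 3 falls, around a median of -0.09. CYBA, a subunit of NADPH oxidases, rose by 0.49 (edgeR adjusted p = 0.000313) and HMOX1, heme oxygenase, by 0.25 (edgeR adjusted p = 0.0327). NQO1 and TXNRD1, antioxidant enzymes, had log2 fold changes of -0.17 each (edgeR adjusted p = 0.00571 and 0.0158), and PARP2, a poly(ADP-ribose) polymerase, had -0.17 (edgeR adjusted p = 0.0382). HMOX1 and TXNRD1 lost their calls without GFP replicates 2 or 3 or BMI1 replicates 1 or 3, and PARP2 without any library but GFP replicate 1. The list had 1 rise and 1 fall without GFP replicate 2, GFP replicate 3, BMI1 replicate 1 or BMI1 replicate 3, and 2 rises and 5 falls without GFP replicate 1.

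Markers of other cell types were summed in each library. The 10 markers of nociceptive sensory neurons, of which 5 were tested, summed to between 24.6 and 25.3 CPM with GFP and between 21.8 and 24.2 CPM with BMI1, and SCN10A, their defining sodium channel, had 0 counts in all libraries. The 6 keratinocyte markers, 2 of them tested, summed to between 56.5 and 69.2 CPM with GFP and between 67.4 and 69.7 CPM with BMI1, nearly all of it KRT10, and KRT1 had 0 counts. The 6 leukocyte markers, 1 tested, summed to between 30.9 and 39.9 CPM and between 39.3 and 43.6 CPM, nearly all of it CD68. The 6 fibroblast markers, 5 tested, summed to between 27.0 and 30.2 CPM with GFP and between 40.2 and 44.5 CPM with BMI1, higher in the group with more TRPA1. Of the 5, 3 rose, none fell and 2 did not pass, with a median log2 fold change of 0.79. COL1A1, a chain of type I collagen, rose from 2.88 ± 0.204 to 7.68 ± 0.888 CPM (edgeR adjusted p = 5.06e-06). LUM, the matrix proteoglycan lumican, rose 1.73-fold from 6.89 ± 0.651 CPM (edgeR adjusted p = 7.20e-05), and COL1A2 from 0.356 to 0.813 CPM (edgeR adjusted p = 0.0233). PDGFRB and DCN had log2 fold changes of 0.22 and 0.47 without passing, and COL3A1, with 8 counts over the GFP and 6 over the BMI1 libraries, was too low to test. The 5 endothelial markers, 3 tested with 1 rise and 1 fall, summed to between 8.72 and 9.54 CPM with GFP and between 6.99 and 7.81 CPM with BMI1. The part of the fibroblast and endothelial lists in the channel differences was not tested.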

How the data were processed

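The deposited values are RSEM expected counts for 23345 symbols and 6 libraries, and all columns were used. RSEM 1.2.12 and Bowtie 1.0.1, with hg19, come from the submitters' processing notes, while their settings, the strand and any poly(A) selection are not stated in those notes or labels. TRIzol extraction and Illumina library preparation are stated per the labels' protocols.

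Counts were rounded, filtered with filterByExpr of edgeR 4.0.16 (15079 genes kept, 3468 rows empty), scaled by TMM and tested by the quasi-likelihood test with Benjamini-Hochberg adjustment at 0.05 (R 4.3.3). The standard error is the log2 fold change over the square root of F. CPM use full library totals, and log2 CPM a prior count of 2. Alternatives were DESeq2 size factors, upper-quartile scaling, the DESeq2 1.42.0 Wald test, limma-voom (limma 3.58.1), no filter, at least 1 CPM in 3 libraries, lowess GC correction (94.6% of tested genes matched to GENCODE), each library left out, and a replicate block. Limits on counts cover counting error only. Libraries of a group differed beyond sampling noise (mean chi-square per gene 2.23 to 11.6).

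The channels, lists and alternatives were chosen with earlier results of these data known. Named were all 10 channels; in each list, every gene that passed where 5 or fewer did, otherwise the 2 largest rises and falls reaching 1 CPM; the 5 genes nearest to TRPA1; and the neighbours of each channel. Genes outside this rule (PKD2, MCOLN1, TRPM3, TRPM1, markers) were named after their values were seen. Neighbours and promoters come from RefSeq on GRCh38.p14, and no coordinates on hg19 are given. Plots used Python 3.11.15 with matplotlib 3.10.9. Some genes that the rule names are not reported here.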

Additional observations from a re-analysis of the deposited data

How the results depend on the processing

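The count of channel genes that passed was 5 in the main analysis and 4 or 5 in the 14 alternatives, TRPM7 being the one lost. The direction of TRPA1, TRPM4, TRPM7, TRPM8 and TRPV4 was the same in each. TRPA1 ran from a log2 fold change of 3.42 (without GFP replicate 3) to 4.53 (without GFP replicate 1). The signs of TRPV1 and TRPV2, which did not pass, changed: TRPV1 from -0.20 (without GFP replicate 3) to 0.08 (without BMI1 replicate 2), TRPV2 from -0.06 (GC correction) to 0.06 (without BMI1 replicate 2). The count of related genes that passed was 37, with 24 to 50 on leaving out a library, and 52 after GC correction. Genes changed in the whole table numbered 3991, with 2758 to 5644 on leaving out a library and 5628 after GC correction. With DESeq2, 3428 genes passed and the same number of channels, 5. Its Wald test dropped STIM1, TMEM110, MRS2, HMOX1, PARP2, CAMK1D, SHPK, SLC6A16 and UBB (DESeq2 Wald adjusted p from 0.0524 to 0.251). CAMK2D, NIPA2 and PRKCD passed there but not in the main analysis. The store-operated list then held 1 rise and no fall. GC correction gave that list 3 rises and 2 falls and the magnesium list 2 rises and 2 falls, and it dropped HMOX1 and SHPK. Both groups carry replicate numbers 1 to 3. Same-numbered libraries did not deviate together in each pair (correlations 0.07, 0.09 and -0.06), and not every library correlated best with its own number. With 3 libraries per group these values cannot show whether a number marks a shared culture or day. With a replicate block 3990 genes, 5 channels and 36 related genes passed. The block dropped NFATC3, PARP2, PIP5K1A, SHPK, SLC6A16 and UBB (edgeR adjusted p from 0.0513 to 0.0813), while PLCD3 and PIP5K1C passed there (0.0343 and 0.0451). NFATC3 also missed the threshold with upper-quartile scaling, no filter and at least 1 CPM in 3 libraries (edgeR adjusted p from 0.0505 to 0.0572). At this depth a row with 0 counts allows up to 0.0994 CPM in the deepest library and 0.149 CPM in the shallowest.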

Other observations

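Some genes that mark sensory neurons were lower with BMI1. TAC1, which encodes the neuropeptide substance P, fell from 2.97 ± 0.40 to 1.07 ± 0.13 CPM (log2 fold change -1.49, edgeR adjusted p = 9.69e-05). ISL1, a homeobox factor of sensory neurons, differed by -0.29 on the log2 scale (edgeR adjusted p = 0.00910). Both genes were named after their values were seen.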
